A study of Homo sapiens with 35 samples.

Results

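Knockdown (KD) of *ETS1* in TWEAK-treated U-87 MG cells lowered more genes than it raised, by an excess that depended on the fit. The lowered genes included stress-response factors such as *ATF3* and *DDIT3* and cytokines such as *IL24* and *IL6*. The comparison was set by its RNA-seq libraries, with 3 libraries of *ETS1* KD cells against 3 libraries of control cells, both given TWEAK, and these were 6 of the 35 samples of the series. Of the 62696 rows of the count table, 16879 genes passed an expression filter and were tested. The U-87 MG line was derived long ago from a human glioblastoma. TWEAK was given at 10 ng/ml for 48 h after 8 h of starvation, and was replenished after 24 h. Besides these, 3 libraries of untreated control cells and 3 libraries of *NFKB2* KD cells with TWEAK were used for comparison. KD cells came from CRISPR-Cas9 delivered by lentivirus to a pool of cells with antibiotic selection, so that a library averages cells with different edits. The labels do not say which guide the RNA-seq cells carried.

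ETS1 is a transcription factor of the ETS family, whose members bind DNA at a GGAA core and act at promoters and enhancers of genes for proliferation, angiogenesis, invasion and matrix remodelling. TWEAK, a ligand of the TNF family, acts through its receptor Fn14, the product of *TNFRSF12A*, and leads to the processing of p100, the product of *NFKB2*, to p52. The stress responses described here run through ATF4, a transcription factor made when the initiation factor eIF2 is phosphorylated, which drives amino acid import and synthesis, tRNA charging and the factors DDIT3 (CHOP) and ATF3. A related arm, the unfolded protein response of the endoplasmic reticulum (ER), raises chaperones such as HSPA5 (BiP) and runs in part through IRE1α, the product of *ERN1*.

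Libraries held 28384201 to 40192606 counts in total. Levels are given in CPM (counts of a gene scaled to the library total times its TMM normalization factor). Differences are given as log2 fold changes of the edgeR quasi-likelihood fit with their standard errors (SE). For these a Benjamini-Hochberg adjusted p under 0.05 was taken as a call. All 27 listed genes of the mesenchymal state passed the filter, with summed levels of 26935 to 28520 CPM in control and 28804 to 32470 CPM in *ETS1* KD libraries, whereas 12 of 16 blood cell, 10 of 17 neuronal and 12 of 23 glial and stem cell genes did not pass it. The 11 glial and stem cell genes that passed summed to 298 to 467 CPM in control and 309 to 426 CPM in *ETS1* KD libraries. The 7 neuronal genes that passed summed to 94.6 to 96.2 CPM and 84.9 to 92.0 CPM in turn. Of 13 epithelial and endothelial genes 7 passed, at 9.41 to 9.61 CPM and 8.15 to 10.4 CPM. Blood cell genes that passed summed to 16.2 to 18.5 CPM in control and 19.4 to 20.9 CPM in *ETS1* KD libraries. The part of these genes in the results was not tested. Within each group the libraries differed along GC content. The rank correlation of a library's deviation from its group mean with GC content, across 9876 genes, lay between −0.42 and 0.54 for the control and between −0.62 and 0.62 for the *ETS1* KD libraries. Control replicate 1 and *ETS1* KD replicate 2 were at the same end of this axis, and *NFKB2* KD replicate 2 stood apart from its group at many of the genes below. The same correlation was −0.67, −0.64 and 0.72 for untreated control replicates 1, 2 and 3, so that replicate 3 stood apart there. Comparisons with untreated cells carry this limit.

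The targeted gene was measured first. *ETS1* (chr11:128458761-128587558 in hg38, minus strand) was at 71.9, 73.1 and 87.6 CPM in the control and at 28.2, 33.0 and 37.8 CPM in the *ETS1* KD libraries. All KD libraries were thus below all control libraries, and also below the untreated control libraries, which were at 42.0, 41.3 and 45.1 CPM. *ETS1* fell by 1.23 on the log2 scale (SE 0.15, adjusted p = 0.00112), and the call held with any one of the 6 libraries left out. CRISPR edits need not lower the RNA of their target, and protein was not measured in these libraries. In bulk RNA, fewer cells that express a gene and less of its RNA per cell cannot be told apart. Of the other genes of the pathway under study, *NFKB2* was at 235 to 346 CPM in control and 209 to 273 CPM in *ETS1* KD libraries (log2 fold change −0.28, SE 0.17, adjusted p = 0.61). *TNFRSF12A* was at 138 to 145 CPM against 146 to 158 CPM (0.09, SE 0.10, adjusted p = 0.836). *ERN1* was at 12.8, 17.0 and 25.0 CPM in control and 13.5, 11.5 and 15.7 CPM in *ETS1* KD libraries, so that the groups overlapped (−0.43, SE 0.24, adjusted p = 0.546). *TERT*, the telomerase gene, was at 0.825, 1.97 and 2.33 CPM against 1.99, 1.78 and 2.52 CPM (0.28, SE 0.40, adjusted p = 0.91).

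Across all genes, 191 (1.13%) were lower and 43 (0.255%) were higher in *ETS1* KD than in control cells, 1.39% together. The 3 libraries of both groups did not overlap at any of these 234 genes, against 20.3% of all genes tested. The calls were made on the same libraries, so this follows largely from them and is no further support. The median fold was 2.46 among lowered and 1.81 among raised genes, and 136 lowered and 18 raised genes changed by at least 2-fold. Lowered genes comprised 154 protein-coding genes, 34 lncRNAs and 3 pseudogenes, and raised genes comprised 40 protein-coding genes and 3 lncRNAs. Among them 80 lowered and 11 raised genes were below 5 CPM in both groups. With the libraries corrected for GC content and length, 335 (1.99%) genes were lower and 232 (1.37%) higher, so the excess of lowered genes was smaller in that fit. With a term for the replicate number added to this correction, 428 genes were lower and 419 higher, so that little excess remained. At the thresholds of the study (fold of 1.5 or more, unadjusted p up to 0.05) 4.52% of genes were lower and 1.15% higher. Leaving out one library at a time left 91 to 131 lowered and 11 to 25 raised genes, fewest without *ETS1* KD replicate 3, and 83 lowered and 11 raised genes passed in each of these 6 fits.

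**Figure D1:**
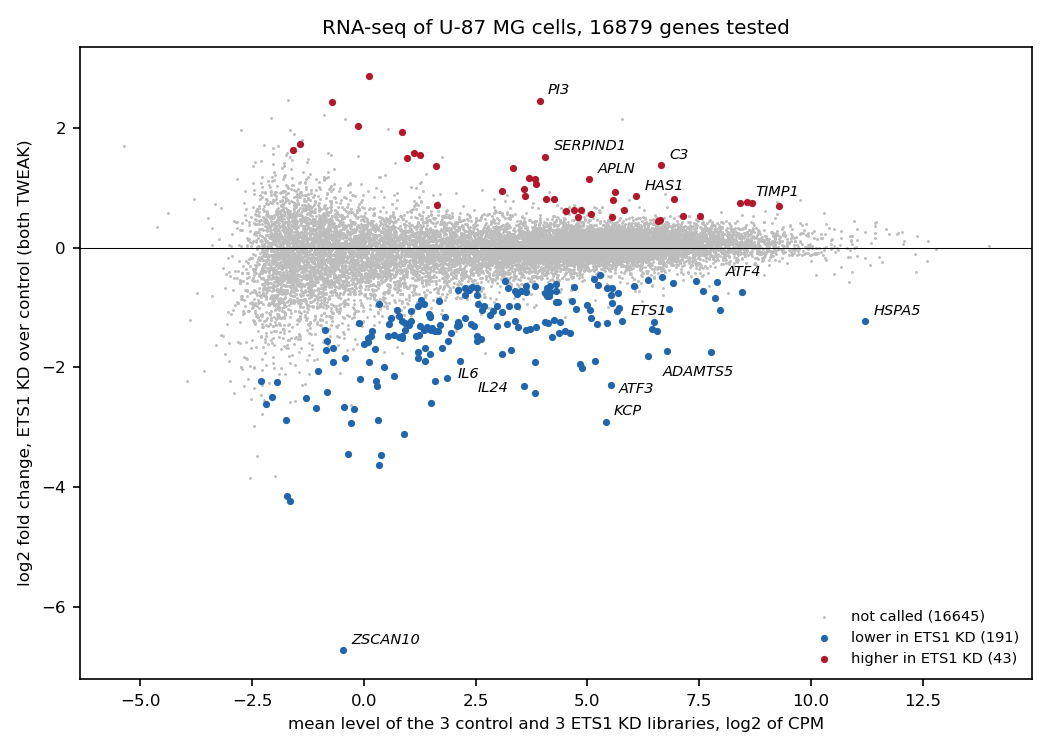
Log2 fold change of *ETS1* KD over control, both with TWEAK, against the mean level of the 6 libraries in log2 CPM, with 1 point for each of the 16879 genes tested. Blue marks the 191 genes lower and red the 43 genes higher in *ETS1* KD cells at an adjusted p under 0.05. *ZSCAN10*, the lowest point, had no counts in 2 of the 3 KD libraries, so its fitted value is not a measured fold.

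The called genes were then split by their response to TWEAK, taken from TWEAK-treated against untreated control cells, in which 261 genes (1.55%) were raised and 259 (1.53%) lowered. Of the 191 genes lowered in *ETS1* KD cells, 21 were raised by TWEAK, 10 were lowered by TWEAK and 160 were called in neither direction. Of the 43 genes raised in *ETS1* KD cells, 10 were raised by TWEAK, 2 were lowered and 31 were not called. Both comparisons share the TWEAK-treated control libraries, so a high level there by chance places a gene in the first class, and no test was made of these counts. Against the untreated control libraries, 183 of the 191 lowered genes had a lower mean in *ETS1* KD cells, and 161 were called lower, against 7.61% of all genes tested. Of the 43 raised genes 36 were called higher than in untreated control cells, against 6.22%. These counts rest on the same *ETS1* KD libraries and on untreated libraries that differed among themselves along GC content, whose effect was not tested. Most of the lowered genes were thus below their level without TWEAK as well.

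The ATF4 and amino acid response held the most lowered members of any list. The lists were written with earlier results of these data known, so the rank of this list is not independent of those results. Counts of this and the following lists are to be set beside the 1.13% of all genes tested that were lowered and the 0.255% raised. Of 35 measured members, 11 were lowered and none was raised, the median log2 fold change was −0.45 against 0.01 over all genes tested, and 30 of 35 members were below 0. The libraries of both groups did not overlap for 71.4% of the members, against 20.3% of all genes. The share was also above that of all genes in other lists, such as CDK inhibitors and p53 targets (59.3%), DNA replication (52.9%) and mitosis (47.3%). It was below it in others, such as oxidative phosphorylation (2.08%) and ribosomal proteins (0%). None of the 35 ATF4 list members was called with TWEAK in control cells, where 1.55% of all genes were raised and 1.53% lowered. Few calls among them could thus be expected. Their median log2 fold change with TWEAK was 0.18, against 0.02 over all genes tested. In the fit corrected for GC content and length, 17 members were lowered and none was raised.

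The factors at the head of this response changed by several fold. *ATF3*, a repressor and activator of the ATF/CREB family induced by many stresses, was at 70.5, 75.7 and 83.2 CPM in control and at 17.4, 14.9 and 14.5 CPM in *ETS1* KD libraries, and it fell by 2.30 on the log2 scale (SE 0.16, adjusted p = 3.15e-05). *DDIT3*, which encodes the pro-apoptotic factor CHOP, was at 149, 119 and 117 CPM in control and at 40.1, 39.8 and 29.3 CPM in *ETS1* KD libraries (−1.82, SE 0.18, adjusted p = 0.000235). *TRIB3*, a pseudokinase that inhibits AKT and feeds back on ATF4, was at 42.1, 44.1 and 49.2 CPM against 11.2, 13.5 and 10.4 CPM (−1.95, SE 0.20, adjusted p = 0.000299). For these 3 genes every *ETS1* KD library was below every control library, and also below every untreated control library, which were at 67.3 to 88.3 CPM for *ATF3*, 98.4 to 110 CPM for *DDIT3* and 32.7 to 44.6 CPM for *TRIB3*. *NUPR1*, a small chromatin protein of the stress response, fell by 1.91 (SE 0.19, adjusted p = 0.000235), from 19.1 to 26.6 CPM in control to 4.55 to 7.71 CPM in *ETS1* KD libraries. *ATF4* itself moved less than the other 10 lowered members of the list. It was at 311, 290 and 265 CPM in control and 208, 179 and 193 CPM in *ETS1* KD libraries (−0.58, SE 0.10, adjusted p = 0.0101), and the call was lost without control replicate 2, *ETS1* KD replicate 2 or *ETS1* KD replicate 3 (highest adjusted p = 0.0703).

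Enzymes and transporters followed with smaller levels or changes. *CHAC1*, which degrades glutathione, was at 7.96, 8.71 and 8.72 CPM in control and at 3.02, 3.03 and 3.09 CPM in *ETS1* KD libraries (−1.47, SE 0.15, adjusted p = 0.000235). *SESN2*, a leucine sensor that restrains mTORC1, was at 110, 131 and 137 CPM against 48.9, 49.0 and 48.8 CPM (−1.37, SE 0.19, adjusted p = 0.00301). *CTH*, which makes cysteine by transsulphuration, fell by 1.26 (SE 0.15, adjusted p = 0.000798). *SLC3A2*, the heavy chain of several amino acid exchangers, fell by 1.05 (SE 0.16, adjusted p = 0.0054). Among members with weaker support, *DDIT4*, an inhibitor of mTORC1, passed only with all libraries (−1.39, adjusted p = 0.0308, and 0.0581 to 0.158 with any one left out). *ASNS*, the asparagine synthetase, was low at 1.83, 2.34 and 2.86 CPM in control and 0.821, 0.705 and 1.03 CPM in *ETS1* KD libraries (−1.46, adjusted p = 0.0371), and passed in 1 of the 6 fits with a library left out. Cytosolic aminoacyl-tRNA synthetases, which ATF4 also activates, held 3 lowered and no raised genes of 20, with a median of −0.08. These were *AARS1* (−0.85, SE 0.09, adjusted p = 0.000367), *GARS1* (−0.74, SE 0.10, adjusted p = 0.00253) and *WARS1* (−0.73, SE 0.12, adjusted p = 0.00631), and each held its call with any library left out.

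Of the unfolded protein response, 3 of 30 members were lowered and none was raised. The median was −0.17 and 28 of 30 members were below 0. *HSPA5*, the major chaperone of the ER lumen, was at 3455, 3183 and 3425 CPM in control and at 1500.4, 1405 and 1390.0 CPM in *ETS1* KD libraries, and it fell by 1.23 on the log2 scale (SE 0.10, adjusted p = 5.06e-05). The 3 KD libraries lay below the 3 untreated control libraries too, which were at 2889, 2740.4 and 2999.9 CPM. *HERPUD1*, a component of ER-associated degradation, was at 121, 126 and 132 CPM against 55.8, 50.2 and 53.8 CPM (−1.24, SE 0.11, adjusted p = 0.000157). *DNAJB9*, a cochaperone of HSPA5, was at 35.5, 31.0 and 32.1 CPM against 16.2, 20.3 and 16.4 CPM (−0.90, SE 0.19, adjusted p = 0.0341), and passed in 1 of the 6 fits with a library left out. The pseudogene *HSPA5P1* was also lowered, and shares its sequence with *HSPA5*, so its counts are uncertain. No member of the response was called with TWEAK, and the median with TWEAK was 0.11 against 0.02 over all genes tested.

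**Figure D2:**
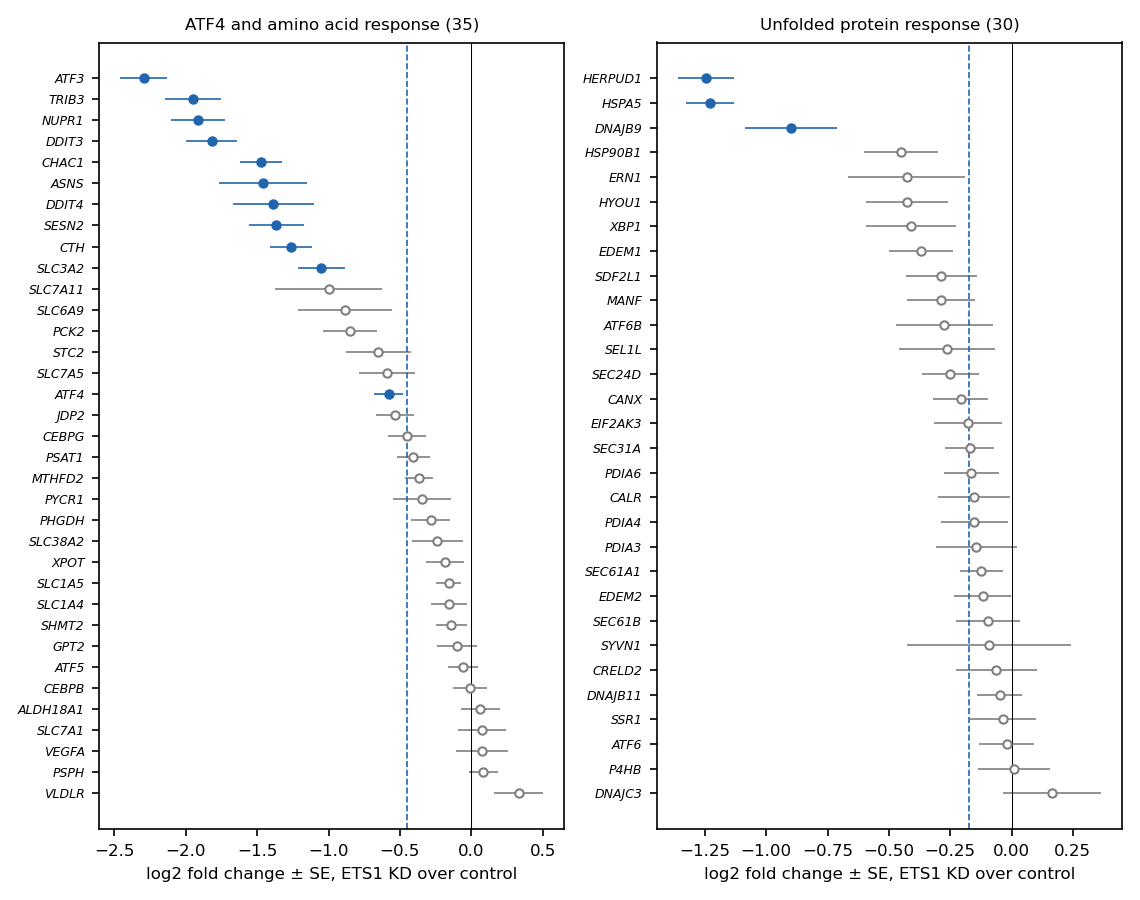
Log2 fold change (point) and its SE (bar) of *ETS1* KD over control, both with TWEAK, for the 35 measured members of the ATF4 and amino acid response and the 30 of the unfolded protein response. Filled blue points passed an adjusted p under 0.05, and the dashed line is the median of the list, at −0.45 and −0.17. Lowered members stand at the lower end of both lists, and no member was raised.

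Promoter sequence was read for these genes, since binding sites of the factors of both responses are known, and the 250 bases before the start are shown from RefSeq (GRCh38.p14), 5′ to 3′ along the gene. The composite element of ATF4 and C/EBP factors was searched as TGATGNAA, the ER stress element (ERSE) in its full consensus and the ETS site as CCGGAAG, on both strands, and matches are in capitals. The motifs do not overlap one another in the sequences shown, and bases before the start are counted to the first base of the match.

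CHAC1 (chr15:40953221-40953470, plus strand): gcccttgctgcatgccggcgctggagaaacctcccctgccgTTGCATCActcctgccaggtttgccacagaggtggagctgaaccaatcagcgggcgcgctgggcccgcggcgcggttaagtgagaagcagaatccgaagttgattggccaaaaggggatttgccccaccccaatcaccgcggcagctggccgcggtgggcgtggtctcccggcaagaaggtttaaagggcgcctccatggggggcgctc

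ASNS (chr7:97872409-97872658, minus strand): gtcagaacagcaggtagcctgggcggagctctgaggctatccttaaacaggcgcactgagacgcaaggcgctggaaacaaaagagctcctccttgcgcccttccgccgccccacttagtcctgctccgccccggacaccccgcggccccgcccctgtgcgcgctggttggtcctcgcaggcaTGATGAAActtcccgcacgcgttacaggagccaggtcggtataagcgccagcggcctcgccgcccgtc

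HERPUD1 (chr16:56931892-56932141, plus strand): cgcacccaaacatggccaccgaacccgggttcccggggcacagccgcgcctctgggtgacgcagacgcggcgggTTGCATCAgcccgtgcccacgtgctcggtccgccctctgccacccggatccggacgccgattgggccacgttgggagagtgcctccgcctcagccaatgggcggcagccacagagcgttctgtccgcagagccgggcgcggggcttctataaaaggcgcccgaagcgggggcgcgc

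HSPA5 (chr9:125241344-125241593, minus strand): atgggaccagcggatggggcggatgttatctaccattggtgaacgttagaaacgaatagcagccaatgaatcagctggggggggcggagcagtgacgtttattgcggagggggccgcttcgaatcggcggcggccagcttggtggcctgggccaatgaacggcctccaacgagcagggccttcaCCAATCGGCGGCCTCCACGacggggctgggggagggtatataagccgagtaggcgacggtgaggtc

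GARS1 (chr7:30594628-30594877, plus strand): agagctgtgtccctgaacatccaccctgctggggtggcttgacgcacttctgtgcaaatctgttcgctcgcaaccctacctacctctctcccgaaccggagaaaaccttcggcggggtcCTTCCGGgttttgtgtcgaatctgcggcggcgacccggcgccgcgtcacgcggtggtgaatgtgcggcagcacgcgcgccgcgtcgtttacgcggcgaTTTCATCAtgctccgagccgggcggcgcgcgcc

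The composite element began 209 bases before the start of *CHAC1*, 68 bases before that of *ASNS*, 176 bases before that of *HERPUD1* and 33 bases before that of *GARS1*, and the ER stress element began 66 bases before the start of *HSPA5*. Of 10642 genes tested with such a sequence, 1.3% held TGATGNAA, as did 9 of 119 lowered genes (7.56%), 0 of 30 raised genes and 3 of 26 members of the ATF4 list. The ER stress element was in 0.15% of all these promoters, in 7 of 28 (25%) of the unfolded protein response, and in 2 of 119 lowered genes. The ETS site CCGGAAG was in 16.5% of all promoters, 6.72% of those of lowered genes and 3.33% of those of raised genes, and it began 131 bases before the start of *GARS1*, 198 before that of *DDIT3* and 113 before that of *DNAJB9*. Of the 8 lowered ATF4 list members with a sequence, 2 held TGATGNAA (*CHAC1* and *ASNS*) and 6 did not (*DDIT3*, *SESN2*, *SLC3A2*, *CTH*, *DDIT4* and *ATF4*). Only promoters with a match to the element of either response are shown.

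Cytokine genes were lowered too, and of the 7 named here 5 were raised by TWEAK in control cells (*IL6*, *IL24*, *IL1A*, *CXCL2* and *CCL3*). Of the interleukins and growth factors of immune cells, 3 of 16 were lowered and none was raised, with a median of 0.05, and of the chemokines 2 of 10 were lowered, with a median of −0.44. *IL6*, a pro-inflammatory cytokine that signals through STAT3, was at 6.17, 4.88 and 6.83 CPM in control and at 1.55, 0.950 and 1.43 CPM in *ETS1* KD libraries, and at 2.81, 2.74 and 2.69 CPM without TWEAK. It fell by 2.18 on the log2 scale (SE 0.20, adjusted p = 0.00019). *IL24*, a cytokine of the IL-10 family outside this list, was at 17.4, 17.4 and 24.9 CPM in control and at 3.31, 4.63 and 4.09 CPM in *ETS1* KD libraries (−2.31, SE 0.17, adjusted p = 3.17e-05), and its untreated level was 7.33, 6.92 and 7.75 CPM. Both genes were thus lower in *ETS1* KD cells with TWEAK than in control cells without it. *IL36B*, a cytokine of the IL-1 family named after its values were seen, was the most abundant of them, at 356, 334 and 322 CPM in control and at 100.1, 112 and 89.3 CPM in *ETS1* KD libraries (−1.75, SE 0.16, adjusted p = 0.000157). It was at 399 to 523 CPM without TWEAK and was not called with TWEAK (−0.47, adjusted p = 0.147), and its call in *ETS1* KD cells held with any library left out.

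*IL1A*, an alarmin of the IL-1 family, fell by 1.30 (SE 0.22, adjusted p = 0.00794) and rose with TWEAK by 1.10, and its call was lost without *ETS1* KD replicate 3 (adjusted p = 0.0623). *TSLP*, an epithelial cytokine, fell by 0.91 (SE 0.12, adjusted p = 0.00172). *CXCL2*, which attracts neutrophils, was at 25.4, 32.3 and 41.2 CPM in control, 11.3, 12 and 14.2 CPM in *ETS1* KD and 7.30, 7.16 and 9.56 CPM in untreated libraries. It fell by 1.40 (SE 0.24, adjusted p = 0.0109) and so stayed above its untreated level, with a call lost without control replicate 3, *ETS1* KD replicate 1 or *ETS1* KD replicate 2 (highest adjusted p = 0.0669). *CCL3* was at 3.26 to 4.22 CPM in control and 1.14 to 1.75 CPM in *ETS1* KD libraries and passed only with all libraries (−1.33, adjusted p = 0.0424). Among NF-κB subunits and inhibitors, 1 of 15 was lowered. This was *NFKBIZ*, which encodes the nuclear cofactor IκBζ and was at 28.3, 33.0 and 45.5 CPM in control and 13, 11.6 and 15.1 CPM in *ETS1* KD libraries (−1.42, SE 0.22, adjusted p = 0.0054). Of the TWEAK receptor pathway, 0 of 13 genes were called by edgeR or DESeq2, and 1 had an unadjusted p under 0.05, which 12% of all genes tested had.

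Further genes of large decrease had varied functions. *KCP*, which encodes a secreted modulator of BMP signalling, had the largest decrease of the protein-coding genes of at least 5 CPM in either group, at 41.6, 79.2 and 104 CPM in control and 14.4, 6.44 and 9.06 CPM in *ETS1* KD libraries (−2.91, SE 0.48, adjusted p = 0.00717), and its call was lost without *ETS1* KD replicate 3 (adjusted p = 0.0559). *GDF15*, a stress-induced cytokine of the TGF-β superfamily, was at 50.7, 57.5 and 62.2 CPM against 14.9, 15.6 and 15.1 CPM (−1.90, SE 0.14, adjusted p = 3.17e-05). *ATP6V0D2*, a subunit of the vacuolar proton pump, was at 48.3, 46.1 and 46.6 CPM against 12, 13.2 and 9.87 CPM (−2.01, SE 0.25, adjusted p = 0.00145). Little spread was seen between libraries for the last of these. *MEF2C*, a transcription factor of muscle and neural development, was at 7.35, 7.44 and 6.36 CPM against 2.02, 1.69 and 1.97 CPM (−1.89, SE 0.25, adjusted p = 0.00227). The receptor tyrosine kinase gene *ROS1*, at 4.52 to 5.94 CPM in control and 0.920 to 1.23 CPM in *ETS1* KD libraries, passed only with all libraries (−2.24, SE 0.44, adjusted p = 0.0251). *AKNA*, which encodes a centrosomal protein first described as a transcription factor, fell by 1.78 (SE 0.32, adjusted p = 0.0125) and passed in 1 of the 6 fits with a library left out.

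Matrix proteases and their inhibitors moved in both directions, with 2 of 33 lowered and 1 raised. *ADAMTS5*, an aggrecanase, was at 147, 160 and 200 CPM in control and at 46.0, 58.1 and 48.9 CPM in *ETS1* KD libraries (−1.73, SE 0.31, adjusted p = 0.0129). *MMP1*, the interstitial collagenase, was at 15.1, 12.6 and 16.3 CPM against 4.96, 6.84 and 6.95 CPM (−1.23, SE 0.18, adjusted p = 0.00364), and TWEAK raised it by 1.48 in control cells. *TIMP1*, an inhibitor of these enzymes, was at 248, 300 and 303 CPM in control and at 521, 419 and 505 CPM in *ETS1* KD libraries (0.76, SE 0.13, adjusted p = 0.0108). The call of *ADAMTS5* was lost without control replicate 3, *ETS1* KD replicate 1 or *ETS1* KD replicate 3 (highest adjusted p = 0.0839), and that of *TIMP1* without control replicate 1 or 2 or *ETS1* KD replicate 1 or 3 (highest adjusted p = 0.0788). No gene of integrins and focal adhesion (29 measured), of angiogenesis factors (23) or of the mesenchymal state (27) was called by edgeR. At an unadjusted p under 0.05 there were 3, 4 and 4 in these lists, and DESeq2 called 3, 1 and 0.

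Genes of autophagy, apoptosis and the Notch pathway were lowered in small numbers, where 1.13% of all genes tested were lowered. Of 29 lysosome and autophagy genes 3 were lowered, all of which act in autophagosome formation, namely *WIPI1* (−0.59, SE 0.10, adjusted p = 0.0107), *MAP1LC3B* (−0.56, SE 0.12, adjusted p = 0.0356) and *GABARAPL1* (−0.52, SE 0.10, adjusted p = 0.0186). None of the 3 held its call in all fits with a library left out, and without *ETS1* KD replicate 1 or 3 no member passed. Of 16 BCL2 family genes 2 were lowered, both of the BH3-only class, which promotes apoptosis. *HRK* was at 20.3, 28.1 and 33.3 CPM against 10.2, 8.55 and 10.3 CPM (−1.49, SE 0.21, adjusted p = 0.00345), and *BMF*, at 2.00 to 2.62 CPM against 0.944 to 1.20 CPM, passed only with all libraries (−1.05, adjusted p = 0.04). Of 30 Wnt and Notch genes 2 were lowered, both Notch target repressors, *HEY1* at 5.31, 4.33 and 4.28 CPM against 1.55, 2.51 and 1.57 CPM (−1.30, SE 0.21, adjusted p = 0.00631) and *HES1* at under 1.1 CPM in all 6 libraries. *HEY1* lost its call without *ETS1* KD replicate 3 (adjusted p = 0.0501), and *HES1* without control replicate 2 or 3 or *ETS1* KD replicate 1 or 2 (highest adjusted p = 0.0924). A single interferon-stimulated gene of 43, *IFIT2*, was lowered (−1.70, SE 0.26, adjusted p = 0.00519), as was 1 of 20 MAPK feedback genes, the phosphatase gene *DUSP10* (−0.74, SE 0.11, adjusted p = 0.00421). These are results for single genes and not for their lists. The interferon list had a median of −0.20, with 31 of 43 members below 0.

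Raised genes were fewer and changed less. *PI3*, which encodes the secreted elastase inhibitor elafin, was at 4.95, 4.08 and 5.14 CPM in control and at 24.8, 25.7 and 27.1 CPM in *ETS1* KD libraries (2.45, SE 0.17, adjusted p = 3.15e-05). It was at 0.764, 0.738 and 0.781 CPM without TWEAK, so that it rose with TWEAK and was higher again in *ETS1* KD cells. *SERPIND1*, the thrombin inhibitor heparin cofactor II, followed the same order at 3 to 4 CPM untreated, 6.82 to 10.2 CPM with TWEAK and 20.8 to 26.7 CPM in *ETS1* KD libraries (1.52, SE 0.24, adjusted p = 0.00627). *BDKRB1*, a bradykinin receptor gene, was at 7.35, 9.14 and 7.5 CPM in control and 15.4, 16.5 and 15.6 CPM in *ETS1* KD libraries (0.99, SE 0.14, adjusted p = 0.00274). These 3 were among the 10 raised genes that TWEAK also raised.

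Other named raised genes were of varied function. Among those that held with any library left out were *APLN*, the ligand of the apelin receptor, at 20.5, 18.5 and 22.8 CPM against 45.9, 42.7 and 47.4 CPM (1.14, SE 0.18, adjusted p = 0.00519), and *PMEPA1*, a feedback inhibitor of TGF-β signalling, at 6.42, 8.26 and 9.24 CPM against 18.3, 15.7 and 19.5 CPM (1.16, SE 0.17, adjusted p = 0.00358). *HAS1*, a hyaluronan synthase gene, was at 44.9, 48.8 and 52.1 CPM against 84.9, 85.9 and 92.8 CPM (0.85, SE 0.13, adjusted p = 0.00461). *GALNT12*, an enzyme of mucin-type glycosylation, rose by 0.92 (SE 0.13, adjusted p = 0.00289). For all 4 genes the libraries of both groups did not overlap, which the choice of the genes required. Weaker support was found for *C3*, the central complement component, at 32.6, 54.3 and 80.1 CPM against 148, 109 and 178 CPM (1.38, SE 0.28, adjusted p = 0.0282, and up to 0.15 with a library left out), and for *BMP6* (1.34, SE 0.23, adjusted p = 0.0109, and up to 0.0796). *IGFBP1* (1.15, adjusted p = 0.03) and *HLA-DQA1* (1.06, adjusted p = 0.0282) each passed in 1 of the 6 such fits, and *COL4A2* (0.95, adjusted p = 0.0301) in none. *HLA-DQA1* has a close copy, with which its reads can be shared.

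**Figure D3:**
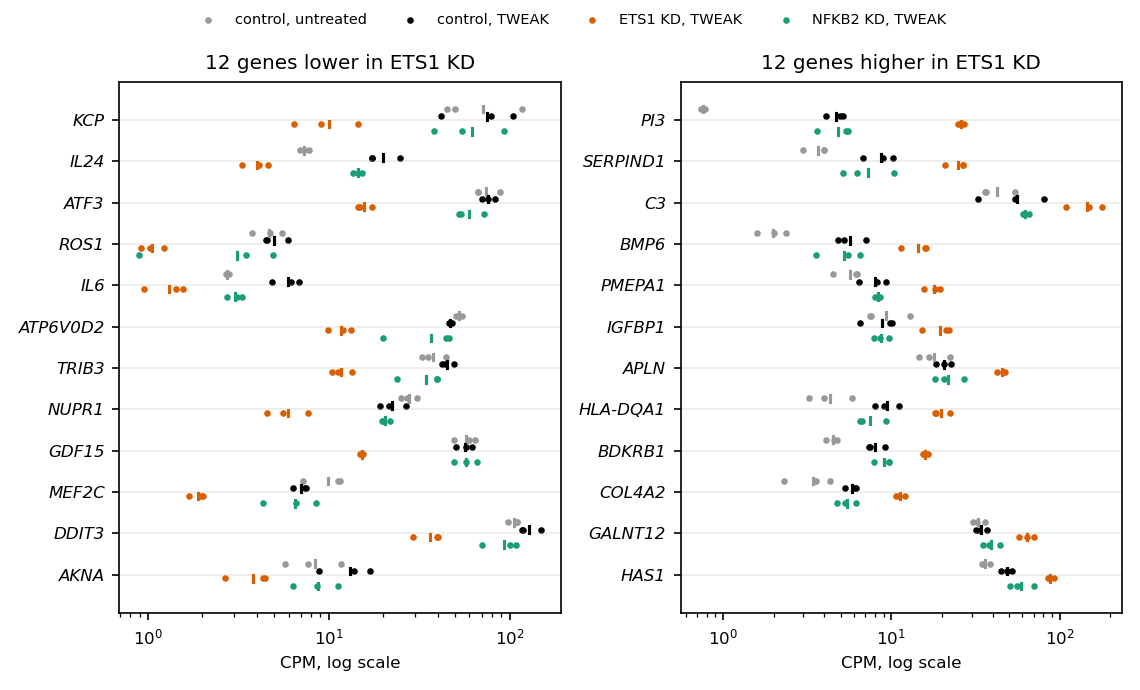
Level in CPM (log scale) of the 12 protein-coding genes with the largest decrease (left) and the largest increase (right) in *ETS1* KD cells, among called genes of at least 5 CPM in either group. Points are the 3 libraries of each of the 4 groups and short vertical bars are their means. All 3 *ETS1* KD libraries lie outside the range of the 3 TWEAK-treated control libraries for every gene, which the choice of the genes required.

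Genes of cell division lay above 0 as groups, although few single genes passed an adjusted p under 0.05. Of 55 mitosis genes 54 were above 0, with a median of 0.35, and 1 was raised, the ubiquitin-conjugating enzyme gene *UBE2C* at 160, 141 and 149 CPM against 214, 234 and 204 CPM (0.53, SE 0.12, adjusted p = 0.0402). Of 51 genes of DNA replication and S phase 50 were above 0, with a median of 0.24, and 1 was raised, the origin recognition gene *ORC6* (0.50, SE 0.10, adjusted p = 0.02). *UBE2C* passed only with all libraries and *ORC6* in 1 of the 6 fits with a library left out. At an unadjusted p under 0.05 there were 21 mitosis and 22 replication genes, against 12% of all genes tested, and DESeq2 called 6 and 3. Corrected for GC content and length, 9 mitosis and 3 replication genes were raised and none was lowered. In control cells TWEAK raised 5 mitosis genes, with a median of 0.36. Collagens and basement membrane (35 genes, median 0.11) held 1 raised gene, *COL4A2*, and YAP and SRF targets (22 genes, median 0.08) held 1, *CRIM1*. TGF-β and BMP genes held 2 raised (*BMP6* and *ID1*) and 1 lowered (*GDF15*) of 30. *CRIM1* (0.81, adjusted p = 0.0347) passed in 1 of the 6 fits with a library left out (up to 0.185), and *ID1* (0.80, adjusted p = 0.0202) in none (0.0691 to 0.127).

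Other gene groups held no call by edgeR. These included 74 ribosomal protein genes (median −0.04), 48 genes of oxidative phosphorylation (0.06), 33 of cholesterol and fatty acid synthesis (0.20), 26 of the JAK-STAT pathway (−0.01), 26 NRF2 targets (−0.04), 22 of MHC class I (0.13), 17 of heat shock (0.15) and 28 of RNA polymerase II and its general factors (0.05). At an unadjusted p under 0.05 there were 0, 0, 7, 3, 6, 2, 0 and 0 genes in these lists in turn, and DESeq2 called 1 of cholesterol and fatty acid synthesis, 2 NRF2 targets and none in the others. The 7 metallothionein genes had a median of 0.67, and none was called by edgeR, although 4 had an unadjusted p under 0.05 and DESeq2 called 2. In all, 37 of the 191 lowered and 7 of the 43 raised genes were in one of the 42 lists, so that most called genes belonged to none. Of the ETS family itself, 1 of 19 measured genes was lowered, *ETS1*.

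**Figure D4:**
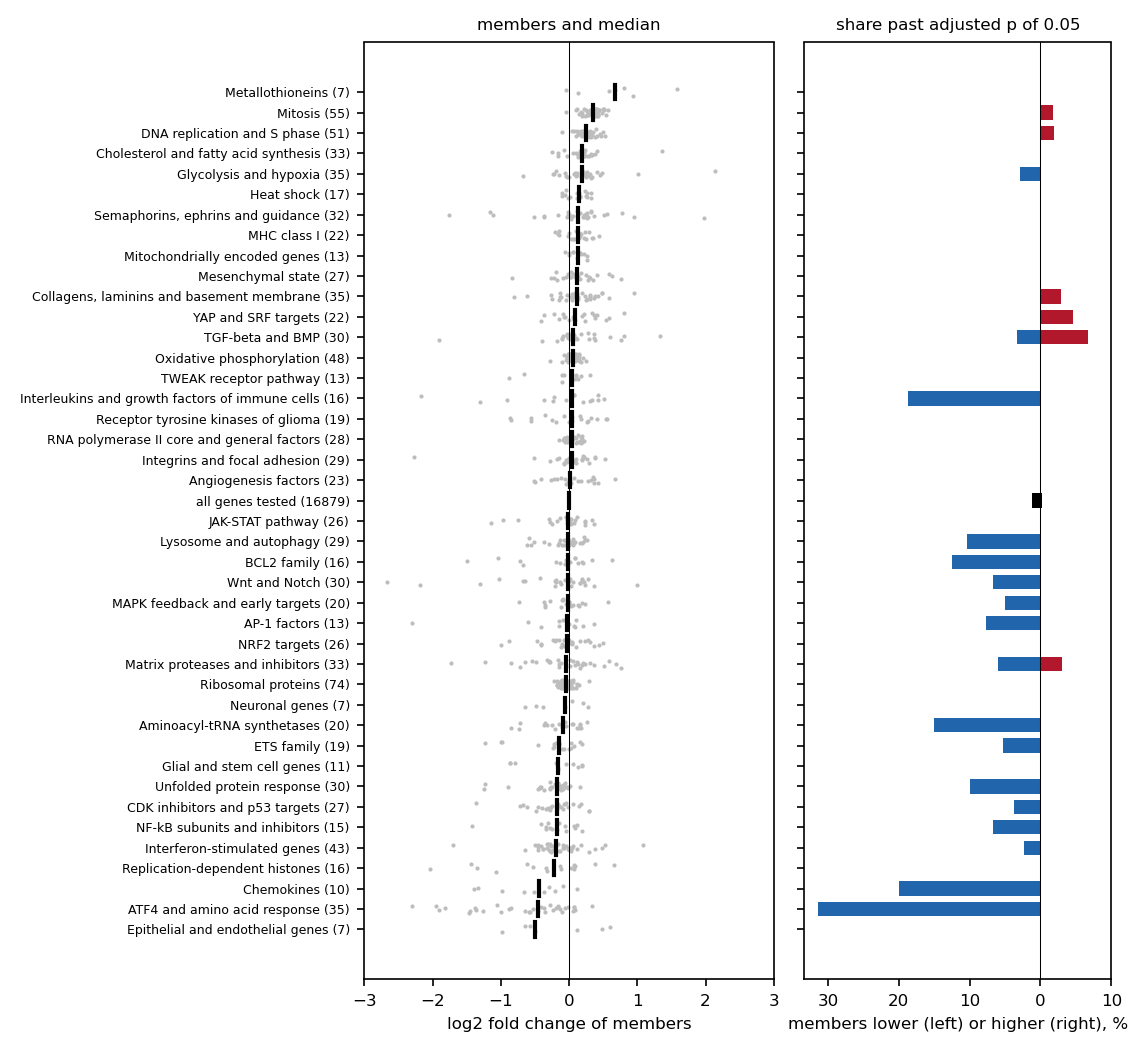
Left, log2 fold change of *ETS1* KD over control for the members of each gene list (grey points) and their median (black bar), with the number of measured members in brackets and lists ordered by median. Right, the share of members lower (blue, to the left) or higher (red, to the right) at an adjusted p under 0.05, with all 16879 genes tested in black. The ATF4 and amino acid response had the largest share of lowered members, 11 of 35, among lists written with earlier results of these data known. Lists with fewer than 5 measured members are left out.

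*ETS1* KD was next compared with *NFKB2* KD, both with TWEAK, so that no control library was on either side of the contrast. The control libraries were still part of the same fit, and so entered its filter, scaling and estimate of spread. *ETS1* KD cells were lower for 237 genes (1.4%) and higher for 90 (0.533%). Of the 191 genes lowered against control, 134 were also lower than in *NFKB2* KD cells, and of the 43 raised genes 24 were also higher, where both comparisons use the same *ETS1* KD libraries. Of the 35 ATF4 list members, 10 were lower in *ETS1* KD than in *NFKB2* KD cells, among them *ATF3* (−1.93, SE 0.16, adjusted p = 0.000109) and *DDIT3* (−1.36, SE 0.18, adjusted p = 0.00234). *IL6* (−1.21, adjusted p = 0.0104) and *IL24* (−1.85, adjusted p = 0.000307) were lower as well. *CXCL2* and *CCL3* were not called between the KDs (−0.34, adjusted p = 0.562, and 0.07, adjusted p = 0.946). *NFKB2* KD replicate 2 stood apart at some of these genes, for example at 56.6 CPM for *ADAMTS5* against 166 and 171 CPM in the other two. Without it 196 genes were lower and 70 higher.

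Peak lists of ChIP-seq gave a readout that was independent of the RNA-seq libraries. ETS1 had 3570 and 3145 peaks in the 2 libraries of TWEAK-treated control cells, as the authors' peak caller gave them. A peak in both libraries between 1000 bp before and 100 bp after the start was found for 11 of 191 lowered genes (5.76%, exact 95% confidence interval 2.91 to 10.1%), 5 of 43 raised genes (11.6%, 3.89 to 25.1%) and 928 of 16873 genes tested (5.50%). These intervals cover counting error only, and both contain the share of all genes. A peak in either library was found at 11% of lowered (6.94 to 16.3%), 27.9% of raised (15.3 to 43.7%) and 12.6% of all promoters. By this wider rule the interval of the raised genes, 12 of 43, lay above the share of all genes, and that of the lowered genes contained it. With 2000 bp before to 500 bp after the start, 14% of raised promoters (5.30 to 27.9%) had a peak in both libraries, against 7.30% of all. With a −log10 q of at least 5 the shares were 6.98% (1.46 to 19.1%) and 3.40%. By these 2 rules the intervals of the raised genes contained the share of all genes. None of the 11 lowered members of the ATF4 list and none of the 3 of the unfolded protein response had an ETS1 peak in both libraries. No ETS1, p52 or RNA Pol II peak was listed in this window of the *ETS1* gene, which was transcribed, so the window at the annotated start may not hold the promoter in use. In that of *ERN1* no ETS1 peak was listed. A p52 peak was listed there in 1 of 2 control libraries, with a fold enrichment of 9.97, and in none of the 4 *ETS1* KD libraries. The control library with this peak held 11761 p52 peaks, the other control library 3579 and the *ETS1* KD libraries 1387 to 4252. As the lists differ in length, a loss of p52 at this promoter cannot be read from them and was not tested.

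The lowered genes with an ETS1 peak in both libraries included *MEF2C*, with a fold enrichment of 6.95 and 5.91, *ADAMTS5*, with 10.8 and 8.28, *RUBCNL*, with 6.52 and 5.26 (its call was lost without *ETS1* KD replicate 3, adjusted p = 0.05), and *GARS1*, with 5.40 and 3.79. Among the raised genes were *BMPER*, a modulator of BMP signalling, with 6.20 and 6.91 (its call was lost without control replicate 2 or *ETS1* KD replicate 3, highest adjusted p = 0.0524), and *CRIM1*, with 4.63 and 4.41. The fold enrichment is the ratio to the background at the summit, from the peak caller of the authors. The 250 bases before the start of *MEF2C* are shown as the promoter with the largest decrease among the lowered genes that had both a peak in each library and at least 5 CPM, with the shorter ETS sequence AGGAAG in capitals.

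MEF2C (chr5:88883185-88883434, minus strand): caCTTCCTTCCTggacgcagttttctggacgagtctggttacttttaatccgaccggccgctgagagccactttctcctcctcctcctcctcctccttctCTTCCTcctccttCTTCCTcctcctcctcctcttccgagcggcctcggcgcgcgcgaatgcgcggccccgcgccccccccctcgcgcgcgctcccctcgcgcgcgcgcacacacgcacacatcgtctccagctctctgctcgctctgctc

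AGGAAG was matched 4 times in it, all on the strand opposite to the gene, beginning 248, 244, 150 and 137 bases before the start, and the first 2 overlap. The sequence was in 26.6% of all 10642 promoters, 27.7% of those of lowered genes and 26.7% of those of raised genes.

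RNA polymerase II (Pol II) peaks were read at the same promoters, in 2 libraries each of control and *ETS1* KD cells with TWEAK. Lowered genes had a Pol II peak in both control libraries at 67 of 191 promoters (35.1%, 28.3 to 42.3%) and in both *ETS1* KD libraries at 52 (27.2%, 21 to 34.1%). Over all genes tested these shares were 52.8% and 44.4%, so the *ETS1* KD share was lower for all genes too. Raised genes had one at 22 of 43 promoters (51.2%) in control and 24 (55.8%) in *ETS1* KD cells. Of the 67 lowered genes with a peak in both control libraries, 5 (7.46%, 2.47 to 16.6%) had none in either *ETS1* KD library, against 585 of 8906 (6.57%) of all genes. Of the 11 lowered members of the ATF4 list, 9 had a Pol II peak in both control and 8 in both *ETS1* KD libraries, the exception being *CHAC1*. The peak lists differ in length, from 24710 to 44672 Pol II peaks, hold no read counts, and allow no test of the amount of Pol II at a promoter.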

How the data were processed

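RNA-seq was measured in 12 libraries of U-87 MG cells, 3 each of untreated control, TWEAK-treated control, *ETS1* KD and *NFKB2* KD cells, described by the study as biological replicates. The authors used Trimmomatic for trimming, STAR for alignment (hg38) and featureCounts for counting, and their deposited table holds raw counts. The labels and the study's methods name different library kits and no strand setting for counting, so reads of antisense genes may be mixed with those of their partners. ChIP-seq peak lists were deposited as called in each library by the authors with MACS2 after alignment with Bowtie2, with the fold enrichment (a ratio), −log10 p and −log10 q of each peak.

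Counts were tested with edgeR 4.0.16 in R 4.3.3 (filterByExpr, TMM, quasi-likelihood F-test, 1 model of 4 groups, Benjamini-Hochberg over 16879 genes). The study used DESeq2, which was run as an alternative (1.42.0). SE is the log2 fold change divided by the square root of F. Gene models were GENCODE 44, to which 62672 of 62696 rows matched. GC content and length were corrected with a loess offset (span 0.3). A promoter ran from 1000 bp before to 100 bp after the start, with an overlap of at least 1 bp. RefSeq promoter sequence was used for 10642 genes whose RefSeq start lay within 100 bp of the GENCODE start. The code was tested on simulated counts.

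Genes, lists and comparisons were chosen with earlier results of these data known. Named genes were the 12 protein-coding genes of largest change in each direction (called, at least 5 CPM in either group, no overlap), the genes of the study's pathway and up to 5 members of each list by adjusted p, and other lowered list members were named after their values were seen. Alternatives were other size factors, no filter, DESeq2, the 6 libraries alone, GC and length correction, a replicate block, other thresholds and peak rules, and leaving out each library.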

Additional observations from a re-analysis of the deposited data

How the results depend on the processing

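*ETS1* itself kept its direction and its call under every alternative run. The counts of genes moved more. Without a filter on low counts 358 genes were lower and 111 higher in *ETS1* KD than in control cells, with DESeq2 376 and 158, with GC and length correction 335 and 232, and with the study's thresholds (p of at most 0.05 and a fold of at least 1.5) 763 and 194. Requiring an adjusted p under 0.05 and a fold of at least 2 left 18 raised genes. Leaving out each replicate in turn gave 91 to 131 lowered and 11 to 25 raised genes. After seeing the data, control replicate 1 and *ETS1* KD replicate 2 were left out together, which left 73 and 8, and *NFKB2* KD replicate 2 was left out, which gave 290 and 101. Between the KDs, *ETS1* KD was lower for 609 and higher for 172 genes with no filter, 532 and 285 with DESeq2, and 512 and 492 with GC and length correction.

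Lowered genes in any list numbered 58 with no filter and 58 with DESeq2, 24 to 52 with a replicate left out (52 without *NFKB2* KD replicate 2), and 21 with both libraries left out. Raised genes in any list numbered 24, 22 and, with GC and length correction, 36, then 0 to 4 with a control or *ETS1* KD replicate left out, 0 with both left out and 17 without *NFKB2* KD replicate 2. Lowered ATF4 list members numbered 17 with GC and length correction, 14 without *NFKB2* KD replicate 2 and 7 with both libraries left out. With the study's thresholds for TWEAK, 6 raised genes were lowered by TWEAK. With an ETS1 peak in either library, the shares were 11% of lowered and 27.9% of raised promoters. *TERT*, which was not called, had log2 fold changes from −0.034 (without control replicate 1, the only change of sign among the genes named) to 0.55 (without control replicate 3). The causes were not tested.

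The correlations of same-numbered control and *ETS1* KD deviations were −0.357, −0.763 and 0.868. These deviations partly followed GC content, so they cannot decide whether same-numbered libraries were handled together. The fit reported used no pairing. With a replicate block 204 genes were lower and 48 higher, and 11 raised genes were in a list. Together with GC and length correction the block gave 428 and 419 genes, 677 and 885 between the KDs, 63 lowered and 73 raised genes in a list, and 18 lowered ATF4 list members. In that fit the excess of lowered genes was nearly gone, and between the KDs more genes were higher than lower in *ETS1* KD cells. With 3 libraries a group and a GC gradient within each group, genes of low level or small change could be missed.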

Other observations

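Some lowered genes stood outside the lists, and those named here were chosen after their values were seen. Of 28 measured host genes of small nucleolar RNAs 4 were lowered and none was raised, with a median of −0.07. *GAS5*, a non-coding RNA whose introns hold such RNAs, was at 159, 151 and 146 CPM in control and at 83.0, 72.0 and 69.1 CPM in *ETS1* KD libraries (−1.03, SE 0.11, adjusted p = 0.000674). The other three were *SNHG32* (−1.13, adjusted p = 0.00354), *ZFAS1* (−0.79, adjusted p = 0.00631, and 0.0501 without *ETS1* KD replicate 3) and *EPB41L4A-AS1* (−0.76, adjusted p = 0.00814, and 0.0656 without *ETS1* KD replicate 3), and antisense names among them are uncertain without a known strand setting.

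*ZSCAN10*, a zinc finger gene, was at 1.36, 1.49 and 1.44 CPM in control and at 0.0293, 0 and 0 CPM in *ETS1* KD libraries, against 0.591, 0.553 and 1.00 CPM without TWEAK.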
